A study of Mus musculus with 6 samples.

Results

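The renin-angiotensin and endothelin genes of the mouse aorta were read as 10 genes, namely Agt, Ace, Agtr1a, Agtr1b, Agtr2 and Mas1 of the angiotensin system and Edn1, Ece1, Ednra and Ednrb of the endothelin system. They were taken by symbol from a table of 55335 genes, and each symbol matched 1 row. Aortas of wild-type C57BL/6 mice aged 6 weeks (young, 3 mice) were compared with those of wild-type mice aged 6 months (aged, 3 mice), with 1 RNA-seq library per mouse. Per the study's methods, the mice were male, the fat around the vessel was dissected off, and a segment of the vessel was frozen, so each library mixes all layers of the wall. The comparison asks which genes of the aorta differ between both ages.

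Angiotensinogen is cleaved by renin to angiotensin I, and angiotensin-converting enzyme turns this into angiotensin II, which constricts arteries through the type 1 receptors. Rodents carry a pair of genes for that receptor. The type 2 receptor and the Mas receptor oppose many of its actions. Endothelin-1 is made by endothelial cells as a precursor that endothelin-converting enzymes cleave, and it is among the strongest known constrictors of vessels. Its receptor A lies on smooth muscle and constricts it, while its receptor B on endothelium takes up endothelin-1 and releases nitric oxide.

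The libraries held between 31049632 and 45832185 counted reads, and 16612 genes passed the filter on low counts. Smooth muscle RNA was high in all 6 libraries, with Acta2, the actin of smooth muscle, at 12229 to 18120 CPM (read counts scaled to library size, here with TMM factors). The aorta label itself was not tested by this gene. Mitochondrial genes held 21.2, 16.7 and 14.9% of counts in young replicates 1, 2 and 3 and 23.1, 26.7 and 30.4% in aged replicates 1, 2 and 3, without overlap, and the TMM factors were 1.06 to 1.11 in young and 0.886 to 0.943 in aged libraries. A fit without mitochondrial genes called 0 of 16661 genes, so its count of members could not differ from 0. The part of this difference in the results was not tested. Some libraries stood apart. Young replicate 1 had 14806 counts of Xist and 53 of Ddx3y, against 7 to 24 and 1488 to 2117 in the others, which goes against a male label. It also had the highest cardiac muscle markers (348 CPM summed over 6 genes, 82.5 to 96.4 elsewhere). Aged replicate 2 had 1422 CPM of Ucp1, a brown fat gene, against 45.2 to 361. Aged replicate 3 had 870 CPM of Pecam1, an adhesion molecule of endothelium, against 167 to 225. Summed endothelial markers were at 1873 CPM there, at 453 and 415 CPM in aged replicates 1 and 2 and at 477 to 591 CPM in young libraries. On this sum, aged replicates 1 and 2 lay below every young library. As mean log2 CPM of the same genes they were at 4.97 and 4.91, within the young range of 4.76 to 5.34. No gene of that list was at 0 in any library. A positive fitted change was found for 10 of 10, and 0 were called by edgeR. Markers of adventitial fibroblasts summed to 2028 to 3079 CPM in young aorta and to 7390, 1877 and 5530 CPM in aged replicates 1, 2 and 3, with a positive fitted change for 8 of 8 genes (6 at an unadjusted p below 0.05, 0 called by edgeR). Macrophage markers, also positive for 8 of 8 (8 at an unadjusted p below 0.05, 0 called), summed to 95.9 to 129 CPM in young and 136 to 435 CPM in aged aorta. Over all tested genes, 10.4% were at an unadjusted p below 0.05 by edgeR. In bulk tissue, fewer cells of a type and less RNA per cell cannot be told apart.

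Sequence context is given where it bears on the values. The Edn1 start region is shown because Edn1 had the largest fitted change among the tested members. The window covers 250 bases before the start and 50 after it, at chr13:42301226-42301525 on the plus strand of GRCm38.p6 (RefSeq), and its start at 42301476 is also the one of GENCODE M21. Capitals mark, in the order printed, GATAA on the minus strand, ACGTG on the minus strand and TGACTAA on the plus strand.

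Edn1: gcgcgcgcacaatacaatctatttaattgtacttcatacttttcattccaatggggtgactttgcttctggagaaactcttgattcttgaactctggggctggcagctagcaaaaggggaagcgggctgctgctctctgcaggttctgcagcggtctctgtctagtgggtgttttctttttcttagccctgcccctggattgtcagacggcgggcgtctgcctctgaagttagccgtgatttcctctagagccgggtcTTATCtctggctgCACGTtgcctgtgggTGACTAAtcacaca

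GATAA is a core of GATA factor sites and was found in 25.4% of 32851 such windows, either strand. ACGTG, a core of hypoxia response elements, was found in 19.6%, and TGACTAA, a variant of the AP-1 site, in 2.35%. All of these matches lay after the annotated start, at bases 9 to 13, 22 to 26 and 37 to 43. The start in use in these aortas was not tested. The AP-1 consensus TGANTCA, present in 7.81% of windows, was not found here. A match is a description of letters and not a binding site.

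The pair of type 1 receptor genes is similar in sequence, so the stretches that a read of 50 bases could not tell apart were looked for. Their coding parts have 1080 bases each and 90.8% of these are the same. The longest identical stretch has 66 bases and lies at coding bases 75 to 140 of both, at chr13:30381028-30381093 (plus strand) for Agtr1a and chr3:20316301-20316366 (minus strand) for Agtr1b (GRCm38, GENCODE M21).

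Agtr1a and Agtr1b: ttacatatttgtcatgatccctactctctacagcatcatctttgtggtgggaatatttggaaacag

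Of the 50-base words in the main Agtr1a transcript, 1.53% also occur in that of Agtr1b, and 1.57% the other way. Nearly every read of exact sequence could therefore be assigned to 1 of the genes, while the handling of reads from the shared stretch is not given in the sources used here.

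Levels were compared between genes per length, as FPKM. The converting enzymes lay far above the ligands and receptors. Ace was at 69.7 ± 17.3 FPKM (SD over 6 libraries) and Ece1 at 20.3 ± 9.11. Edn1 followed at 3.31 ± 2.69, then Ednra at 1.59 ± 0.631 and Ednrb at 0.875 ± 0.281. Agtr1a at 0.504 ± 0.194, Agt at 0.409 ± 0.227 and Agtr1b at 0.246 ± 0.173 came next. Mas1 at 0.0638 ± 0.0598 and Agtr2 at 0.0110 ± 0.0190 were the lowest. Ace exceeded Ece1, Ece1 exceeded Edn1, and Ednra exceeded Ednrb in 6 of 6 libraries, each with p = 0.0313 by an exact two-sided paired permutation test, the smallest p that 6 libraries allow, and 0.0938 adjusted over 9 neighbouring pairs. No neighbouring pair was below 0.05 after adjustment. The pairs came from ranking the genes by mean FPKM in these same libraries, so their p values are not those of pairs fixed beforehand. Agtr1a was above Agt in 3 of 6 libraries (exact paired permutation test, p = 0.688, adjusted p = 0.688), and Edn1 was above Ednra in 5 of 6 (p = 0.156, adjusted p = 0.201, same exact test).

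**Figure D1:**
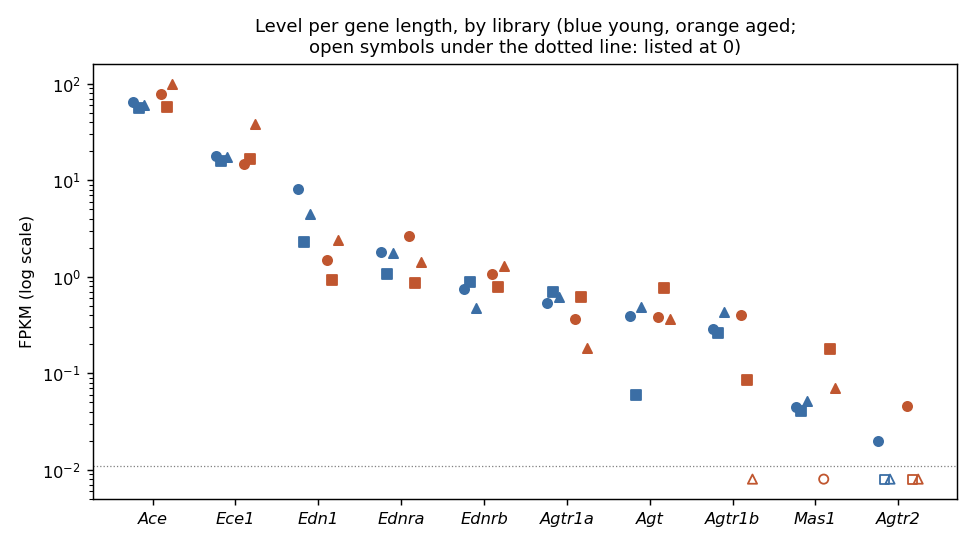
FPKM of the 10 genes in each library on a log axis (young in blue, aged in orange, and circles, squares and triangles for replicates 1, 2 and 3), ordered by the mean of 6 libraries. Ace and Ece1 lie above the other genes in every library, and open symbols mark libraries in which Agtr1b, Mas1 or Agtr2 is listed at 0.

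No member passed the test between ages. The edgeR quasi-likelihood test called 0 of the 8 members with enough counts at an adjusted p below 0.05, where the background over all 16612 genes was 0%. At an unadjusted p below 0.05 it had 2 of 8 (Ace higher, Edn1 lower in aged aorta), where the background was 10.4%. That count was 0 without young replicate 1 or without young replicate 3. It was 1 without aged replicate 1 (Ece1) or without aged replicate 3 (Edn1). It stayed at 2 without young replicate 2 (Edn1 and Ednrb) or without aged replicate 2 (Ace and Ednrb), so the genes behind it changed. The median log2 fold change of the 8 was 0.45, with 5 positive and 3 negative, against a median of 0.02 over all tested genes. DESeq2 called 0 of the members (3 at an unadjusted p below 0.05, and no adjusted p for Agtr1b) where its background was 2.26% of 14955 genes, and limma on FPKM called 0 with 1 at an unadjusted p below 0.05. The groups did not overlap in CPM for 1 member, Ednrb, where 16.5% of all tested genes did not overlap. Agtr2 and Mas1 had too few counts for the test.

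**Figure D2:**
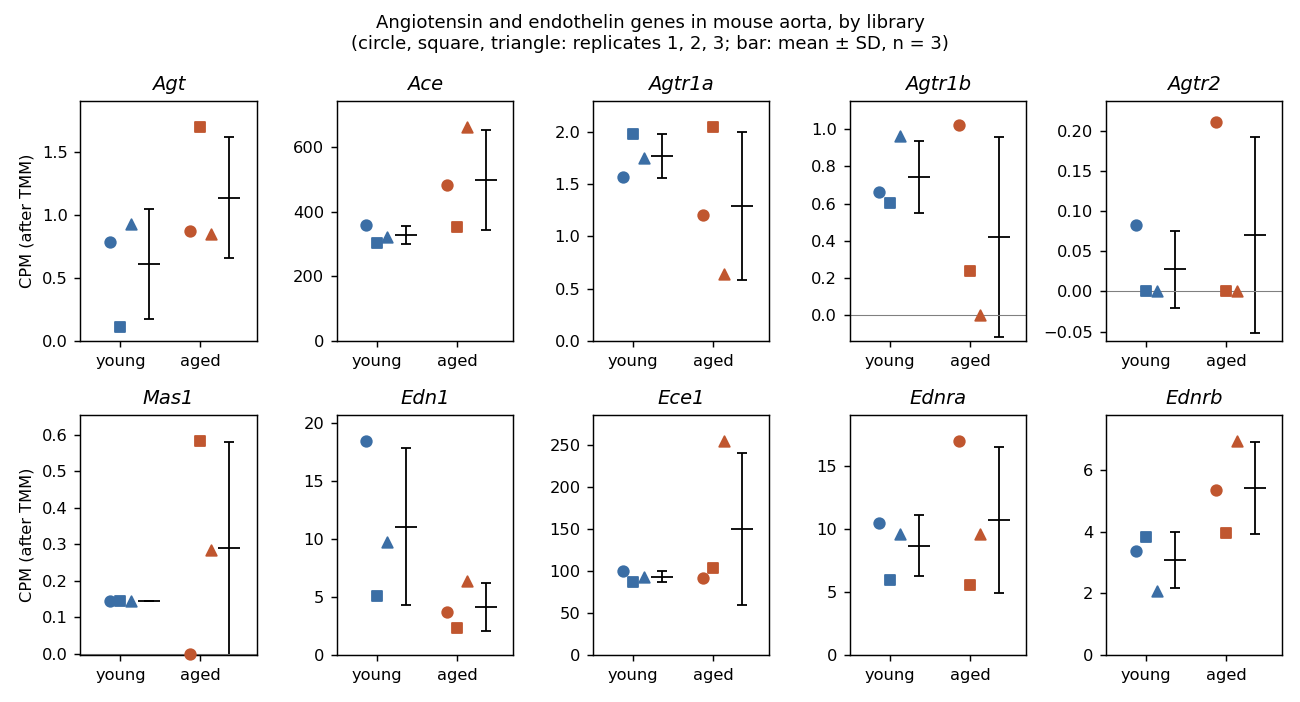
CPM of each member in every library (young in blue, aged in orange; circles, squares and triangles for replicates 1, 2 and 3), with the group mean ± SD (n = 3) as a bar; a lower bar that reaches below 0 is the SD and not a measured value. Edn1 is highest in young replicate 1, Ece1 and Ace are highest in aged replicate 3, and Ednrb is the gene whose groups do not overlap.

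Agt encodes angiotensinogen, the substrate of renin, and lies on chromosome 8 of GRCm38 (GENCODE M21, as for all genes here) from 124556534 to 124569706. It had 38, 4 and 32 reads in young replicates 1, 2 and 3 and 29, 64 and 24 in aged replicates 1, 2 and 3. This is 0.784, 0.115 and 0.932 CPM in young and 0.873, 1.70 and 0.849 CPM in aged aorta. The groups overlapped, the lowest library was young replicate 2 and the highest was aged replicate 2, the library with the most brown fat RNA. EdgeR fitted a log2 change from young to aged aorta of 0.90 with a standard error (SE) of 0.76 (adjusted p = 0.688), and its 95% interval reached from -0.88 to 2.67. It was 0.49 without aged replicate 2 and 0.42 without young replicate 2. Summed brown adipocyte markers were at 254, 587 and 83.2 CPM in young and at 74.5, 1946 and 94.8 CPM in aged replicates 1, 2 and 3, so young replicate 2 combined the second highest marker level with the lowest Agt. Hepatocyte markers, from the cell type known for making most circulating angiotensinogen, summed to 117 CPM in young replicate 3 and to 12.5 to 30.8 CPM elsewhere. The part of either tissue in the Agt values was not tested.

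Ren1, which encodes renin, was also uneven. It was at 0.826, 3.97 and 0.233 CPM in young replicates 1, 2 and 3 and at 3.49, 0.477 and 5.59 CPM in aged replicates 1, 2 and 3, and the fitted log2 change was 0.93 (SE 1.10, adjusted p = 0.782, edgeR). Both groups held libraries at under 1 CPM and libraries above 3 CPM. Atp6ap2, the (pro)renin receptor and a partner of the vacuolar proton pump, averaged 45.2 ± 4.56 CPM (SD, n = 3) at 6 weeks and 61.4 ± 10.6 CPM (SD, n = 3) at 6 months. Its groups did not overlap, and edgeR fitted a log2 change of 0.44 (SE 0.18, adjusted p = 0.462).

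Ace, the enzyme that forms angiotensin II and breaks down bradykinin, lies on chromosome 11 from 105967945 to 105989964. It was at 360, 304 and 322 CPM in young replicates 1, 2 and 3 and at 482, 352 and 661 CPM in aged replicates 1, 2 and 3. Of the aged libraries, 2 were above every young library, and aged replicate 2 lay within the young range. Fitted by edgeR, it differed by 0.60 on the log2 scale (SE 0.24, 95% interval 0.03 to 1.17, adjusted p = 0.463). It was 0.35 without aged replicate 3, 0.80 without aged replicate 2 and 0.68 without young replicate 1. With at least 10568 reads of Ace in every library, counting error was small beside the spread between mice.

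The enzymes around Ace were mixed. Among 11 other proteases that form or clear angiotensins, 10 were tested and 0 were called by edgeR. At an unadjusted p below 0.05 there were 2, where the background was 10.4%. Enpep, aminopeptidase A, which turns angiotensin II into angiotensin III, was at 13.8, 12.1 and 14.3 CPM in young replicates 1, 2 and 3 and at 6.56, 9.28 and 5.34 CPM in aged replicates 1, 2 and 3. Every aged library was below every young library, and edgeR fitted a log2 change of -0.92 (SE 0.25, adjusted p = 0.377). Anpep, aminopeptidase N, which acts on angiotensin III, was at 24.8, 24.7 and 29.6 CPM in young and at 74.3, 19.7 and 77.5 CPM in aged replicates 1, 2 and 3. Aged replicate 2 was the lowest of all libraries, and edgeR fitted a log2 change of 1.12 (SE 0.46, adjusted p = 0.472). Without that library Anpep passed the threshold, with a log2 fold change of 1.53 and an adjusted p of 0.0344 (edgeR). In that fit 110 of 17147 genes were called, against 0 of 16612 with all libraries. Summed fibroblast markers were also high in aged replicates 1 and 3 and low in aged replicate 2, and their part in the Anpep values was not tested. Lnpep, which binds angiotensin IV, had the highest FPKM of these enzymes as a mean of 6 libraries, although Anpep was above it in aged replicates 1 and 3, and averaged 170 ± 21.7 CPM (SD, n = 3) at 6 weeks and 153 ± 10.8 CPM (SD, n = 3) at 6 months, for a log2 change of -0.16 (edgeR adjusted p = 0.740). Cma1, the mast cell chymase that can also form angiotensin II, had 63, 0 and 0 reads in young replicates 1, 2 and 3 and 56, 49 and 77 in aged replicates 1, 2 and 3, and a fitted log2 change of 2.08 (95% interval -1.36 to 5.52, adjusted p = 0.640, edgeR). It had no read in young replicates 2 and 3 and at least 49 in the other libraries. Markers of mast cells summed to 4.63 to 6.54 CPM in young and 5.30 to 13.2 CPM in aged aorta.

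The type 1 receptors were low in all libraries. Agtr1a, on chromosome 13 from 30336441 to 30382867, had 76, 69 and 60 reads in young replicates 1, 2 and 3 and 40, 77 and 18 in aged replicates 1, 2 and 3, or 1.57, 1.98 and 1.75 CPM against 1.20, 2.04 and 0.637 CPM. Aged replicate 2 was the highest library and aged replicate 3 the lowest, and edgeR fitted a log2 change of -0.44 (SE 0.49, adjusted p = 0.762). Without aged replicate 3 it was -0.12, and without aged replicate 2 it was -0.93. Agtr1b, on chromosome 3 from 20314473 to 20367177, had 32, 21 and 33 reads in young replicates 1, 2 and 3 and 34, 9 and 0 in aged replicates 1, 2 and 3. The absence of reads in aged replicate 3 allows up to 3 reads, or 0.106 CPM, as counting error alone. Its log2 fold change was -0.80 with a 95% interval from -3.42 to 1.81 (adjusted p = 0.815, edgeR), so neither a higher nor a lower level could be told at this depth and spread. It was -2.54 without aged replicate 1, the highest library, and -0.23 without aged replicate 3. A ratio of both receptors was not formed because of that library at 0.

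With the reads of both genes summed, which removes any wrong split between them, the type 1 receptors were at 2.23, 2.59 and 2.71 CPM in young replicates 1, 2 and 3 and at 2.23, 2.28 and 0.637 CPM in aged replicates 1, 2 and 3. Aged replicate 3 alone lay apart from the others. By edgeR the log2 change was -0.54 (SE 0.50, adjusted p = 0.716).

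The receptors that oppose angiotensin II were at the limit of detection. Agtr2, on chromosome X from 21484544 to 21489164, had 4 reads in young replicate 1, 7 in aged replicate 1 and 0 in the other 4 libraries, where 0 reads allow up to 0.0795 to 0.106 CPM. Mas1, on chromosome 17 from 12841079 to 12868143, had 7, 5 and 5 reads in young replicates 1, 2 and 3 and 0, 22 and 8 in aged replicates 1, 2 and 3. Aged replicate 1 alone had no read, which allows up to 0.0903 CPM. Mrgprd, another receptor for products of the Mas arm, had 0 reads in every library. Agtrap and Mtus1, which bind the type 1 and the type 2 receptor, were well expressed and had log2 fold changes of 0.08 and -0.03 (adjusted p = 0.907 and 0.966, edgeR).

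Nr3c2, the mineralocorticoid receptor that aldosterone acts on downstream of angiotensin II, was at 10.5, 3.25 and 8.71 CPM in young replicates 1, 2 and 3 and at 16.8, 20.6 and 20.99 CPM in aged replicates 1, 2 and 3. Every aged library was above every young library, and the lowest was young replicate 2. Its fitted log2 change was 1.38 (standard error 0.41), with an adjusted p of 0.382 by edgeR and 0.0469 by DESeq2. Cyp11b2, the aldosterone synthase of the adrenal cortex, had 0 reads in all 6 libraries.

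Edn1, the gene of endothelin-1, lies on chromosome 13 from 42301476 to 42307990. It had 893, 176 and 334 reads in young replicates 1, 2 and 3 and 124, 88 and 181 in aged replicates 1, 2 and 3. In CPM this was 18.4, 5.06 and 9.73 in young and 3.73, 2.33 and 6.41 in aged aorta. The young libraries spread more widely than the aged ones, young replicate 1 was the highest, and aged replicate 3 lay above young replicate 2, so the groups overlapped. The means were 11.1 ± 6.79 CPM (SD, n = 3) and 4.16 ± 2.07 CPM (SD, n = 3). Fitted by edgeR, it differed by -1.42 on the log2 scale (SE 0.54, 95% interval -2.70 to -0.14, adjusted p = 0.448). Without young replicate 1, whose Xist level goes against its label, it was -0.82, and without that library and aged replicate 2 it was -0.54. Its sign was negative in each of the 16 alternatives. Cardiac muscle markers had a negative fitted change for 6 of 6 genes (median -2.34, 0 called by edgeR). Of these, 3 were at an unadjusted p below 0.05, where the background was 10.4%. Like Edn1, cardiac muscle markers were highest in young replicate 1. Their part in the Edn1 values was not tested.

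Edn1 was also read against endothelial markers, as its log2 CPM minus the mean log2 CPM of 10 such genes. Which cells of the tissue gave the Edn1 reads was not tested. This scale was chosen after the values were seen. It gave -1.12, -2.62 and -1.46 in young replicates 1, 2 and 3 and -3.04, -3.62 and -3.90 in aged replicates 1, 2 and 3. Every aged library was below every young library, and aged replicate 3, which had the most endothelial RNA, went from the highest to the lowest aged library. The difference of the means was -1.78 (exact two-sided permutation test, p = 0.1, the smallest p that 3 against 3 allow). Of 6 members put on this scale, Edn1 was the 1 whose groups did not overlap, where the background over all tested genes was 5.26%. Against the mean of 8 smooth muscle markers instead, Edn1 overlapped and Ace, Ece1 and Ednrb did not, on a scale where 30.8% of all tested genes did not overlap.

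Ece1, which cleaves the endothelin-1 precursor, lies on chromosome 4 from 137862237 to 137965229. It was at 100, 86.7 and 93.0 CPM in young replicates 1, 2 and 3 and at 92.0, 104 and 254 CPM in aged replicates 1, 2 and 3. Aged replicate 3 stood alone, and the other 5 libraries lay within a narrow range. By edgeR the log2 change was 0.68 (SE 0.38, adjusted p = 0.568), and it was 0.07 without aged replicate 3. Relative to the endothelial markers, which were highest in that library, Ece1 was at 1.32, 1.45 and 1.78 in young and at 1.55, 1.79 and 1.39 in aged replicates 1, 2 and 3 (log2 CPM minus the marker mean). On that scale, chosen after the values were seen, aged replicate 3 lay within the range of the young libraries. The means differed by 0.06 (exact two-sided permutation test, p = 0.7). The part of endothelial RNA in the Ece1 values was not tested. Ace was at 3.16, 3.26 and 3.57 in young and at 3.94, 3.55 and 2.76 in aged replicates 1, 2 and 3 on the same scale. Aged replicate 1 lay above all young libraries and aged replicate 3 below them, so the mean difference of 0.09 (exact two-sided permutation test, p = 1.0) covers libraries that go opposite ways.

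**Figure D3:**
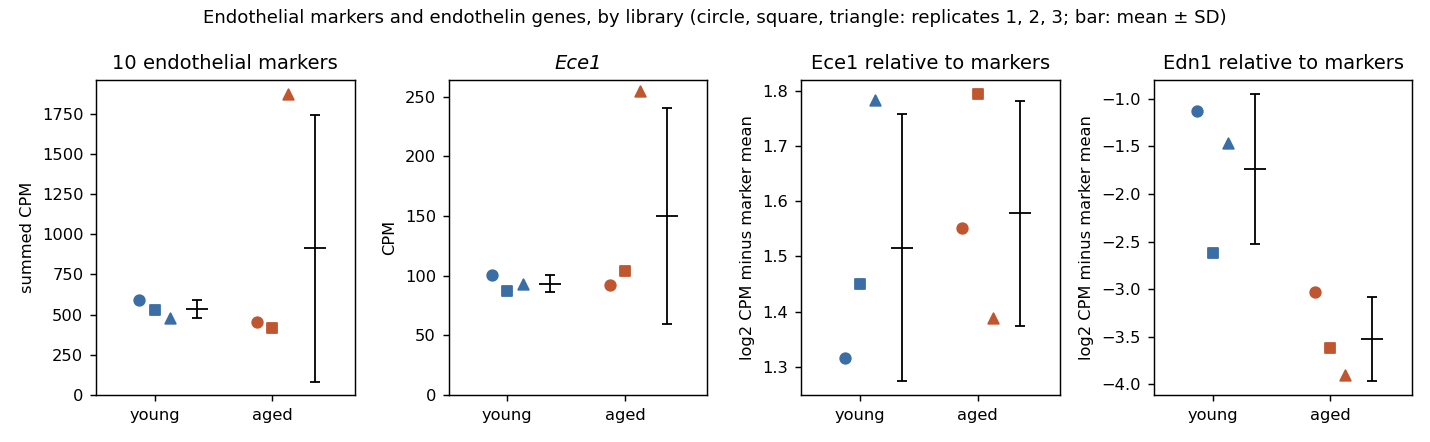
From left to right, summed CPM of 10 endothelial markers, CPM of Ece1, and log2 CPM of Ece1 and of Edn1 minus the mean log2 CPM of those markers, for 3 young (blue) and 3 aged (orange) libraries with the mean ± SD. Aged replicate 3 (triangle) stands alone in the markers and in Ece1 but not in Ece1 relative to the markers, while Edn1 relative to the markers is below -3 in the aged libraries and above it in the young ones.

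Ece2, a related converting enzyme, averaged 8.86 ± 2.13 CPM (SD, n = 3) at 6 weeks and 12.3 ± 1.46 CPM (SD, n = 3) at 6 months, for a log2 change of 0.47 (edgeR adjusted p = 0.541). The ligand Edn3 gave a log2 change of 0.50 (edgeR adjusted p = 0.853) at 0.172 to 1.50 CPM, and Edn2 had 0 reads in 3 of the 6 libraries. Of the endothelin ligands, Edn1 had the highest FPKM in every library.

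Ednra, the constrictor receptor of smooth muscle, lies on chromosome 8 from 77663031 to 77724464. It was at 10.4, 5.95 and 9.62 CPM in young replicates 1, 2 and 3 and at 16.9, 5.57 and 9.63 CPM in aged replicates 1, 2 and 3. The aged libraries spanned the whole young range, with aged replicate 1 above it and aged replicate 2 below it. By edgeR the log2 change was 0.30 (SE 0.42, adjusted p = 0.815). It turned to -0.19 without aged replicate 1.

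Ednrb, the endothelin receptor of endothelium and also of Schwann and neural crest derived cells, lies on chromosome 14 from 103814625 to 103844402. It was at 3.39, 3.82 and 2.07 CPM in young replicates 1, 2 and 3 and at 5.36, 3.95 and 6.94 CPM in aged replicates 1, 2 and 3. The aged libraries were all above the young ones, but aged replicate 2 exceeded young replicate 2 by little. Fitted by edgeR, it differed by 0.81 on the log2 scale (SE 0.35, 95% interval -0.01 to 1.62, adjusted p = 0.484), and it was 0.59 without aged replicate 3. Schwann cell markers summed to 14.3 to 24.4 CPM in young and to 27.5 to 44.0 CPM in aged aorta, without overlap. Relative to the endothelial markers Ednrb differed by 0.33 with overlapping groups (exact two-sided permutation test, p = 0.6). The part of either cell type in the Ednrb values was not tested.

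The balance of both endothelin receptors was read as the log2 ratio of their FPKM, which does not depend on library scaling. Ednra over Ednrb was 1.27, 0.28 and 1.88 in young replicates 1, 2 and 3 and 1.30, 0.14 and 0.13 in aged replicates 1, 2 and 3. Ednra was the higher receptor in 6 of 6 libraries, by between 1.09 and 3.67 times. The groups overlapped, with means of 1.14 ± 0.81 (SD, n = 3) and 0.52 ± 0.67 (SD, n = 3). The difference of -0.62 did not exceed the spread between mice (exact two-sided permutation test, p = 0.3). It was -0.25 without young replicate 3, -1.05 without young replicate 2 and -1.01 without aged replicate 1.

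Type 1 and endothelin receptors share a signalling path through Gq proteins, phospholipase C and RhoA activators, and RGS proteins and arrestins switch it off. Of 12 genes of Gq, its relatives and effectors, 12 were tested and 0 were called by edgeR. At an unadjusted p below 0.05 there was 1, where the background was 10.4%. The log2 fold change was negative for 9 of the 12, and the median of the 12 was -0.17. Plcb4, a phospholipase C of this path, was at 270, 176 and 405 CPM in young replicates 1, 2 and 3 and at 86.5, 152 and 169 CPM in aged replicates 1, 2 and 3. Its groups did not overlap, although young replicate 2 lay close to aged replicate 3, and edgeR fitted a log2 change of -1.06 (SE 0.36, adjusted p = 0.415). Arhgef11, a RhoA activator, also did not overlap, with 55.1 ± 6.84 CPM (SD, n = 3) at 6 weeks and 44.2 ± 2.24 CPM (SD, n = 3) at 6 months for a log2 change of -0.32 (edgeR adjusted p = 0.521). Gna11, which had the highest FPKM of these genes as a mean of 6 libraries though not in each of them, was at 125 ± 1.34 CPM (SD, n = 3) and 113 ± 16.2 CPM (SD, n = 3), for a log2 change of -0.15 (edgeR adjusted p = 0.754). Smooth muscle markers, with 0 of 8 genes positive, had a median log2 fold change of -0.32. Of these markers, 4 were at an unadjusted p below 0.05, where the background was 10.4%, and 0 were called by edgeR. Their part in the values of these signalling genes was not tested.

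Of 7 genes that switch the receptors off, 0 were called by edgeR. At an unadjusted p below 0.05 there were 2, in opposite directions, where the background was 10.4%. Rgs2, which ends Gq signalling and is itself induced by vasoconstrictors, was at 34.9, 46.2 and 30.4 CPM in young replicates 1, 2 and 3 and at 55.4, 140 and 91.6 CPM in aged replicates 1, 2 and 3. Every aged library was above every young library. Its fitted log2 change was 1.36 (standard error 0.34), with an adjusted p of 0.377 by edgeR and 0.0166 by DESeq2. Rgs4, a related gene, was at 129, 69.3 and 135 CPM in young and at 79.6, 29.3 and 31.6 CPM in aged replicates 1, 2 and 3. Aged replicate 1 lay above young replicate 2, and edgeR fitted a log2 change of -1.24 (SE 0.44, adjusted p = 0.427). Rgs5, by far the most abundant of the 7 per length and a gene of mural cells, averaged 619 ± 46.9 CPM (SD, n = 3) at 6 weeks and 611 ± 152 CPM (SD, n = 3) at 6 months (log2 fold change -0.02, 95% interval -0.51 to 0.47, edgeR).

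Over all 42 other genes of both systems and their shared path, 36 were tested and 0 were called by edgeR. Of these, 18 had a positive and 18 a negative log2 fold change, the median was -0.01, and 7 were at an unadjusted p below 0.05, where the background was 10.4%. DESeq2 called 2, Nr3c2 and Rgs2, where its background was 2.26%, and limma called 0. In CPM, 6 of the 36 had groups without overlap, 3 in each direction, where the background was 16.5%.

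**Figure D4:**
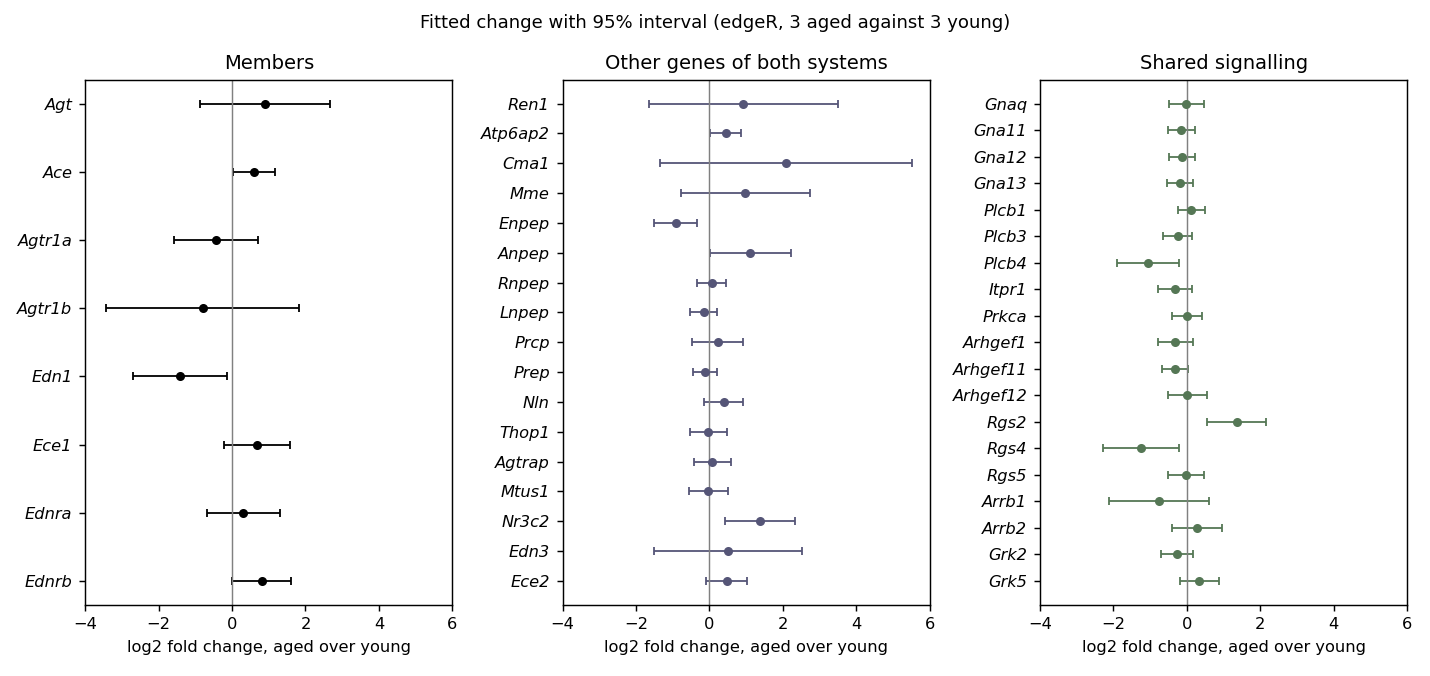
Fitted change from young to aged aorta on the log2 scale, with 95% intervals (edgeR, 3 against 3 libraries) for the 8 tested members, 17 other genes of both systems and 19 genes of their shared signalling path. Intervals are widest for Cma1, Agtr1b, Ren1 and Edn3, and no gene passed the adjusted threshold.

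The genes whose profiles over the 6 libraries were most like those of 4 members were listed by the root mean square difference of log2 CPM after centring each gene on its mean. For Edn1 these were Sar1a (0.25), Scd2 (0.29) and Ikbkg (0.33), each highest in young replicate 1 and lowest in aged replicate 2. For Agt they were Tmem56 (0.21), Rsad1 (0.24) and Fzd9 (0.27). Ednra was nearest to Oas2 (0.14), to a gene without a symbol (0.15) and to Fbxl15 (0.15), and Ednrb to 9930012K11Rik (0.053), Neurl3 (0.088) and Bean1 (0.12). All points share the same 6 libraries, and the list is a description of likeness with no test.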

How the data were processed

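RNA of 3 young and 3 aged mouse aortas was sequenced by the authors as single-ended 50-cycle reads, 1 library per mouse. The deposited values are whole-number read counts per gene without normalization and FPKM, which the authors scaled for gene length and library. The submitters' processing notes name mm10, while the aligner and counter are not given in the sources used here. The libraries held 31049632 to 45832185 counts. Low genes were removed in R 4.3.3 with edgeR 4.0.16 (filterByExpr, minimum count 10, minimum total 15), and TMM scaling and a quasi-likelihood fit of aged against young followed, without covariates. Adjusted p values follow Benjamini and Hochberg over all 16612 tested genes (threshold 0.05). Single values were compared by exact permutation tests (SciPy 1.17.1), and log2 CPM used a pseudocount of 0.1. The fit was tested on simulated data. Positions come from GENCODE M21 (GRCm38), and start regions, present for 9 of the 10 members, from RefSeq (GRCm38.p6).

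All members are named. Of each other pathway list the 2 tested genes with the smallest p and the most abundant one per length are named. A planned ratio is not reported here. Cma1, Edn2, Mrgprd and Cyp11b2 were named after their values were seen. Members and lists were chosen with earlier results of these data known. Alternatives used DESeq2 1.42.0, RLE scaling, other filters (none, or at least 10 counts in every library), log2 FPKM in limma 3.58.1 (pseudocounts 1 and 0.1), the replicate number as a block, leaving out libraries and removal of mitochondrial genes. Summing the type 1 receptors and scaling to endothelial or smooth muscle markers were added after the values were seen. P values of tests between ages set the difference against the spread between mice of each group. Those of the paired tests between gene levels use the 6 libraries of both ages together.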

Additional observations from a re-analysis of the deposited data

How the results depend on the processing

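The count of members called stayed at 0 under all 15 alternatives. Only DESeq2 and the fit without aged replicate 2 called any gene at all. In the other settings no member could be called, so the unchanged count says nothing about the members there. The count over all genes was 0 in edgeR with 1723 at an unadjusted p below 0.05, 338 with DESeq2, and 0 to 110 when single libraries were dropped, the latter without aged replicate 2. For the other pathway genes DESeq2 gave 2 and dropping single libraries gave 0 to 1, the 1 being Anpep without aged replicate 2. The causes were not tested. The log2 fold change of Ednra turned to -0.013 with limma on log2(FPKM + 0.1), to -0.27 relative to the endothelial markers, and lay between -0.19 and 0.62 with 1 library left out. The other 7 tested members kept their sign in every alternative that gave a value. The median over all genes, 0.02 in edgeR, was -0.12 and -0.19 on the FPKM scale of limma (pseudocount 1 and 0.1), and the changes of Ace and Ece1 were 0.34 and 0.31 at the smaller pseudocount. The ratio of Agtr1a to Agtr1b gave no value because 1 library had no Agtr1b read, and Agt and Agtr1b were not tested at 10 counts in every library.

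With the replicate number as a block, 0 members and 0 genes were called. The replicate deviations of same-numbered mice correlated at 0.079, 0.13 and 0.13, so the numbers were not taken as pairs, although each library correlated best with its own number. Depth limits Agt, Agtr1b, Mas1 and Agtr2, which had at most 64 reads in any library.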
